A study of Mus musculus with 384 samples.

Results

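Th-rich dopamine (DA) cells that carried reads of Aldh1a7 were divided by whether they also carried Calb1, and the remaining genes were compared between the sides. A cell belonged to the set if its library held at least 500000 counted reads, Th stood at 1000 CPM (reads scaled to a library of 1000000) or more and Aldh1a7 at 10 reads or more. Of 384 single-cell libraries, 209 passed the depth limit, 181 of those passed the Th limit and 74 passed the Aldh1a7 limit. A member was called Calb1+ at 10 or more Calb1 reads and Calb1− below that, which gave 37 Calb1+ and 37 Calb1− cells. The cells were thus chosen by their reads of Th, Aldh1a7 and Calb1, so the values of these 3 genes below are descriptions.

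The cells came from 8 DAT-IRES-Cre;Ai9 mice on a C57BL6/J background (5 male and 3 female by the sample labels, P24 to P36), in which Cre expressed from the dopamine transporter gene switches on tdTomato. All groups share these alleles and no animal was treated. Because tdTomato reports Cre activity at any time in a cell's past, tdTomato fluorescence alone does not require current dopaminergic expression. The tissue is labelled midbrain, but the dissection took in the hypothalamus, which has DA neurons of its own, and no criterion of the rule concerns the region a cell came from. Cells were sorted as tdTomato+ and propidium iodide−, captured on a Fluidigm C1 chip and made into full-length cDNA libraries, with 1 chip run for each mouse, so that mouse and run cannot be told apart. Members were found in 7 mice, but only mice 2 and 3 (P27) and mouse 5 (P28), all male, had at least 3 cells on each side (5 and 6, 8 and 20, and 8 and 8 Calb1+ and Calb1− cells). Reads were summed by mouse and side, giving 3 Calb1+ and 3 Calb1− sums of 4793812 to 14355591 reads, and mice were the replicates. A sum does not separate fewer positive cells from less RNA in each cell, so the number of cells with 10 or more reads is given beside the levels of the leading genes.

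Calb1 encodes calbindin, a cytosolic buffer that binds calcium as it enters the cell. In the midbrain it is a classical marker of DA neurons of the ventral tegmental area and of the dorsal tier of the substantia nigra, whereas ventral-tier nigral DA neurons mostly lack it and are known as the cells most vulnerable in Parkinson disease. Aldh1a7 encodes a cytosolic aldehyde dehydrogenase closely related to Aldh1a1, a known marker of ventral-tier nigral neurons and of some ventral tegmental neurons. Reads from such near-identical paralogs can be assigned to either gene or dropped during counting, so levels of both genes are uncertain.

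Few members lay near the Calb1 limit. Calb1 ranged from 12 to 1748 reads in Calb1+ cells, with a median of 278 CPM, and 28 of the 37 Calb1− cells had no Calb1 read. The values on either side of the limit were 6 and 12 reads. For Aldh1a7 the nearest values were 9 and 10 reads, and no gap separated the cells there. Among the 107 Th-rich cells below the Aldh1a7 limit, 99 were Calb1+ and 8 were Calb1−. Within the members, Aldh1a7 stood at a median of 103 CPM in Calb1+ and 372 CPM in Calb1− cells, so the Calb1+ side lay nearer the Aldh1a7 limit. Th had medians of 7897 and 7082 CPM.

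**Figure D1:**
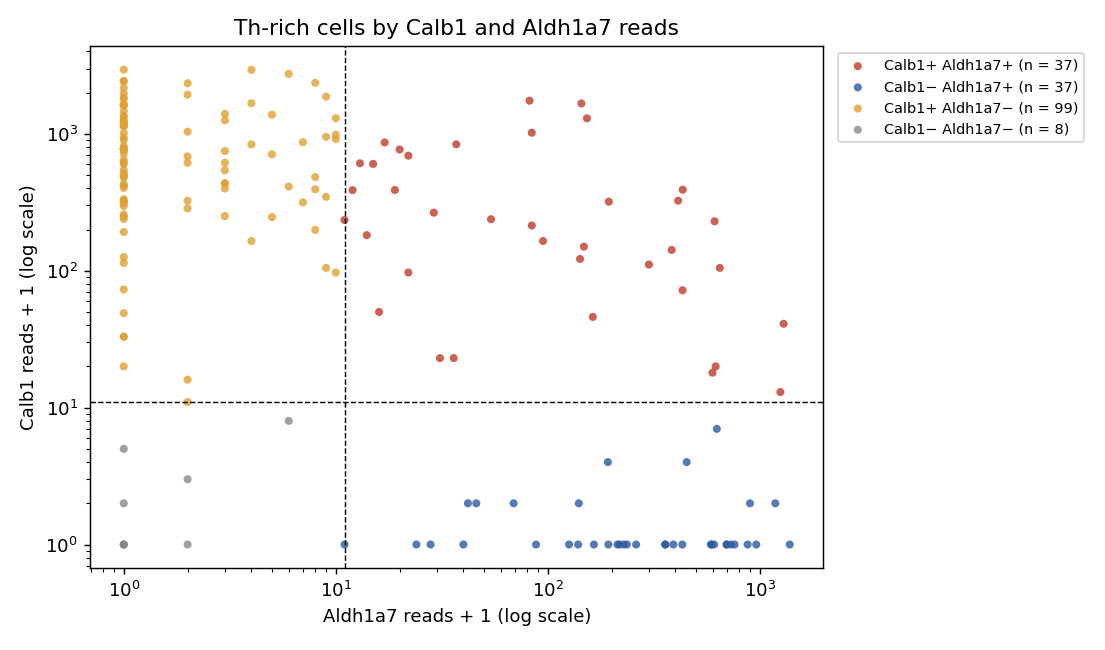
Calb1 reads (vertical) against Aldh1a7 reads (horizontal) in the 181 Th-rich cells, 1 point per cell, both axes as reads + 1 on a log scale. Dashed lines mark the 10-read limits. The 37 Calb1− and 37 Calb1+ members lie right of the vertical line, and 99 of the 107 cells left of it lie above the horizontal line.

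Dopaminergic and neuronal markers were present on both sides. Slc6a3, Ddc and Nr4a2, which encode the dopamine transporter, the enzyme that makes dopamine and a nuclear receptor of DA neurons, each had 10 or more reads in 37 of 37 cells on both sides, and Slc18a2 in 37 and 36. Pitx3, another DA neuron factor, was thinly detected, in 8 and 7 cells. Of 5 pan-neuronal markers, 4 held 10 or more reads in at least 36 of 37 cells on both sides and the other in 25 and 21 cells. Of 7 microglial markers, C1qa, C1qb, Tmem119 and Ctss had no read in the sums, and the list added up to 0.417 to 1.09 CPM in Calb1+ and 0.591 to 4.97 CPM in Calb1− sums. Of 5 endothelial markers Cldn5, Kdr and Ly6c1 had no read in the sums, and the list added up to at most 0.242 and 1.28 CPM. The astrocyte list summed to 605 to 1080 CPM in Calb1+ and 385 to 532 CPM in Calb1− sums, but Gfap, Slc1a3 and Gja1 had no read in them, and the list's reads came mainly from Slc1a2 and Aldoc. The oligodendrocyte list summed to 32.0 to 83.9 and 11.0 to 28.1 CPM with Mog at no read in them, and its part in the results below was not tested. In the GABA neuron list, 1 Calb1+ cell outside the tested mice carried 1238 CPM of Gad1, which encodes a GABA-synthesizing enzyme. Gad2 reached 10 reads in 2 Calb1+ cells, 1 of them in a tested mouse, and the list summed to 1.04 to 126 CPM in Calb1+ and 1.77 to 2.86 CPM in Calb1− sums. Prlr, listed as a marker of hypothalamic DA neurons, held 10 or more reads in 11 of 37 Calb1+ and 0 of 37 Calb1− cells, and of the same list Calcr, Six6 and Ghrh each held 10 or more reads in 1 Calb1+ cell and Esr1 in 2 cells on each side. In the sums of the tested mice the list added up to 3.63 to 21.7 CPM in Calb1+ and 1.14 to 8.15 CPM in Calb1− cells, and its part in the results below was not tested. Members held 506511 to 1545100 reads. Mean log2 reads per cell were 0.11 ± 0.15 higher in Calb1+ cells (SD over 3 mice), higher in 2 of 3 mice, and genes detected at 500000 reads were 323 ± 379 fewer, fewer in the same 2 of 3 mice (two-sided exact permutation of signs, p = 0.5 for each). With 3 mice this test cannot go below p = 0.25.

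The comparison asked which other genes separate Calb1+ from Calb1− cells that share Aldh1a7. No gene passed: the quasi-likelihood test of edgeR, adjusted over all genes by Benjamini-Hochberg, called 0 of 11799 genes (0.0%) at an adjusted p under 0.05, and 531 genes (4.5%) had an unadjusted p under 0.05. With each mouse as a block, which compares the sides within an animal, edgeR also called 0 genes. DESeq2 on the same sums called 88 genes (0.746%), 61 higher (0.517%) and 27 lower (0.229%) in Calb1+ cells. Genes whose 3 Calb1+ sums all lay above the 3 Calb1− sums made up 5.69% of those tested and genes with all 3 below made up 4.64%, 10.3% in either direction. Below, genes are given by their values; none is called by edgeR unless that is stated. The 10 genes in each direction with the smallest unadjusted p, the same sign in 3 of 3 mice and at least 10 CPM on the higher side open the account. That choice used these mice, so their separation is a description. DESeq2 called 20 of these 20, but it ran on the same sums that chose them, so this adds no independent support.

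Toward the Calb1+ side, 5 of the 10 were nearly absent from Calb1− cells. Cnr1, the CB1 cannabinoid receptor, stood at 60.1, 32.4 and 33.9 CPM in the Calb1+ sums of mice 2, 3 and 5 and at 0, 0.139 and 0 CPM in their Calb1− sums. It reached 10 reads in 6 of 21 Calb1+ cells of these mice and in 0 of 34 Calb1− cells. Were cells independent draws, that 0 would allow a share of up to 8.82%, but cells of a mouse are not independent. The adjusted p by edgeR was 0.135, the smallest of all genes. So the difference lay in a minority of Calb1+ cells with clear Cnr1, against none on the other side. Nrp1, the semaphorin and VEGF co-receptor neuropilin 1, measured 92.8, 14.9 and 18.7 against 0, 0 and 0.142 CPM, again in 6 of 21 against 0 of 34 cells. Sorcs3, a sorting receptor of the VPS10 family, measured 46.5, 28.9 and 13.2 against 0.197, 0.0697 and 0.142 CPM. Ppp1r17, a protein phosphatase inhibitor, measured 64.2, 10.7 and 34.1 against 0.197, 0.0697 and 0 CPM. Both were also above the limit in 6 of 21 and 0 of 34 cells. Mxd4, a transcriptional repressor that pairs with MAX, measured 19.2, 8.73 and 23.7 against 0.197, 0 and 0 CPM, with 7 cells above the limit. A single cell gave 44.0% of the Calb1+ reads of Mxd4, and 1 cell each gave 44.4% of those of Nrp1 and 43.0% of those of Ppp1r17. The Calb1− sums of these 5 genes held 1 to 3 reads each, so no fold change is given.

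Of the other 5, 4 are described. Tgfbr3 and Ebf1 had cells above the limit on both sides, and Ildr2 and Ppapdc1a reached it in 2 of 34 Calb1− cells each. Tgfbr3, the TGF-beta co-receptor betaglycan, measured 195, 142 and 125 against 27.0, 41.5 and 41.6 CPM (log2 difference 2.06 ± 0.34), with 19 of 21 and 16 of 34 cells above the limit. Here and below, ± after an edgeR log2 difference is its standard error, not a spread over mice. Ebf1, a transcription factor of early B cells that is also expressed in developing and adult DA neurons, measured 92.2, 105 and 79.5 against 17.7, 21.0 and 8.66 CPM (2.51 ± 0.46), with 13 of 21 and 7 of 34 cells above it. The smallest Calb1+ value of each was well over the largest Calb1− value. Ildr2, an immunoglobulin-like receptor, measured 44.6, 25.3 and 83.6 against 1.77, 1.67 and 3.98 CPM, with 11 of 21 Calb1+ cells above the limit, and Ppapdc1a, a lipid phosphatase, 122, 59.5 and 63.5 against 2.96, 1.39 and 0.142 CPM, with 7 of 21.

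Toward the Calb1− side, Tph2 and Prph stood out as genes of a subset of cells. Tph2, tryptophan hydroxylase 2 of serotonin synthesis, had no read in any of the 3 Calb1+ sums and 23.2, 8.29 and 12.8 CPM in the Calb1− sums, at least 76.4-fold lower in Calb1+ cells against a floor of 3 reads over the group (counting error only). It reached 10 reads in 9 Calb1− cells from 3 mice and in 0 of 37 Calb1+ cells, which would allow a share of up to 8.11% were cells independent draws. Those 9 cells had 12 to 78 Tph2 reads and no read of Slc6a4 or Fev, the serotonin transporter and a factor of serotonin neurons. Prph, the intermediate filament peripherin, measured 0, 0.546 and 2.42 CPM in Calb1+ and 90.6, 18.0 and 33.5 CPM in Calb1− sums, with 1 of 21 and 15 of 34 cells above the limit. The start-site windows of both hold a TATAAA match on the gene's own strand, 30 and 31 bases before the start site of Tph2 and Prph, shown here because of that match, with the window of Cnr1, which leads the other side, for comparison. The windows run from 250 bases before to 50 after 1 annotated start per gene, in GRCm38.p6 (RefSeq). Those of Prph and Cnr1 lie inside the gene spans, which begin at chr15:99053579 and chr4:33923171. Windows are printed 5′ to 3′ along the gene, and capitals mark matches to the motifs named after them.
Tph2, minus strand, chr10:115184973-115185272: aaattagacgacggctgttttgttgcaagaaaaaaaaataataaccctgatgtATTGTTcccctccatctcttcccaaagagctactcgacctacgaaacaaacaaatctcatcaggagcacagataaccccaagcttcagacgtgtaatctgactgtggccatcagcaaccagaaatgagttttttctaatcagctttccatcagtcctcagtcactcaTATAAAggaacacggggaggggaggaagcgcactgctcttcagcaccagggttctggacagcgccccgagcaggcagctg
Prph, plus strand, chr15:99054924-99055223: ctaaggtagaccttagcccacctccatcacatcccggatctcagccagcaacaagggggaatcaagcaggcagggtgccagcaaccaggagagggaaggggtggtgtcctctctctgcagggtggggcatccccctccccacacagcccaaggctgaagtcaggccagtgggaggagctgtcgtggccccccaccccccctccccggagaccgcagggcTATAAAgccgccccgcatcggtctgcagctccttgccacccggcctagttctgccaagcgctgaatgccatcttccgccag
Cnr1, plus strand, chr4:33924014-33924313: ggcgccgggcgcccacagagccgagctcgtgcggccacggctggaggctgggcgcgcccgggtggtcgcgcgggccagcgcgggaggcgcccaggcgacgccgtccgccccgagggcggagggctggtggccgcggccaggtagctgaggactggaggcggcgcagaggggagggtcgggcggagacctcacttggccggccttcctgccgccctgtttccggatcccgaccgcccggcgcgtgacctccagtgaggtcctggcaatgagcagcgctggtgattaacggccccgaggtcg
Both strands were searched for the TATA box TATAAA, for the SOX core AACAAT, for the OTX core TAATCC, for the NBRE of NR4A receptors, AAAGGTCA, and for the EBF palindrome. The capitals of Tph2 are ATTGTT, the SOX core read from the other strand, and TATAAA, and those of Prph are TATAAA. Of 27025 mouse start-site windows of 300 bases, 14.2% held TATAAA, 10.9% the SOX core, 7.16% the OTX core, 1.46% the NBRE and 0.914% the EBF palindrome. These shares count a match at any position on either strand. The share with TATAAA on the gene's own strand, placed as in Tph2 and Prph, was not computed. Windows were matched for 14 of the 20 genes, 6 of the higher and 8 of the lower, and TATAAA occurred in 0 and 2 of them. A match is a description of letters, not a binding site.

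The lower genes that most Calb1− cells carried were Cplx2, Arrb1, Inpp1 and F2r. Cplx2, complexin 2 of synaptic vesicle release, measured 179, 177 and 207 CPM in Calb1+ and 452, 299 and 415 CPM in Calb1− sums (log2 difference −1.07 ± 0.24, adjusted p by edgeR 0.509), and every cell of the 3 mice held 10 or more reads. Arrb1, beta-arrestin 1 of receptor desensitization, measured 20.4, 16.7 and 14.8 against 84.1, 56.6 and 65.6 CPM, with 7 of 21 and 29 of 34 cells above the limit. Its log2 difference turned to 0.14 with all mice that held members and to 0.020 with mice of at least 1 cell a side. Inpp1, an inositol phosphatase, measured 21.5, 22.4 and 19.0 against 90.2, 57.4 and 72.3 CPM, with 9 of 21 and 27 of 34 cells above the limit. F2r, the thrombin receptor PAR1, measured 61.1, 76.2 and 106 against 202, 162 and 170 CPM, with 13 of 21 and 32 of 34 cells above it. None of these pairs of groups overlapped. Zfp783, Anln, Fdxacb1 and Angpt1 were sparse: they reached 10 reads in 10, 8, 6 and 3 of 34 Calb1− cells and in 0 of 21 Calb1+ cells, and 66.5% of the Calb1− reads of Angpt1 came from 1 cell. The log2 difference of Angpt1 turned to 0.32 when Calb1+ began at 1 read.

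**Figure D2:**
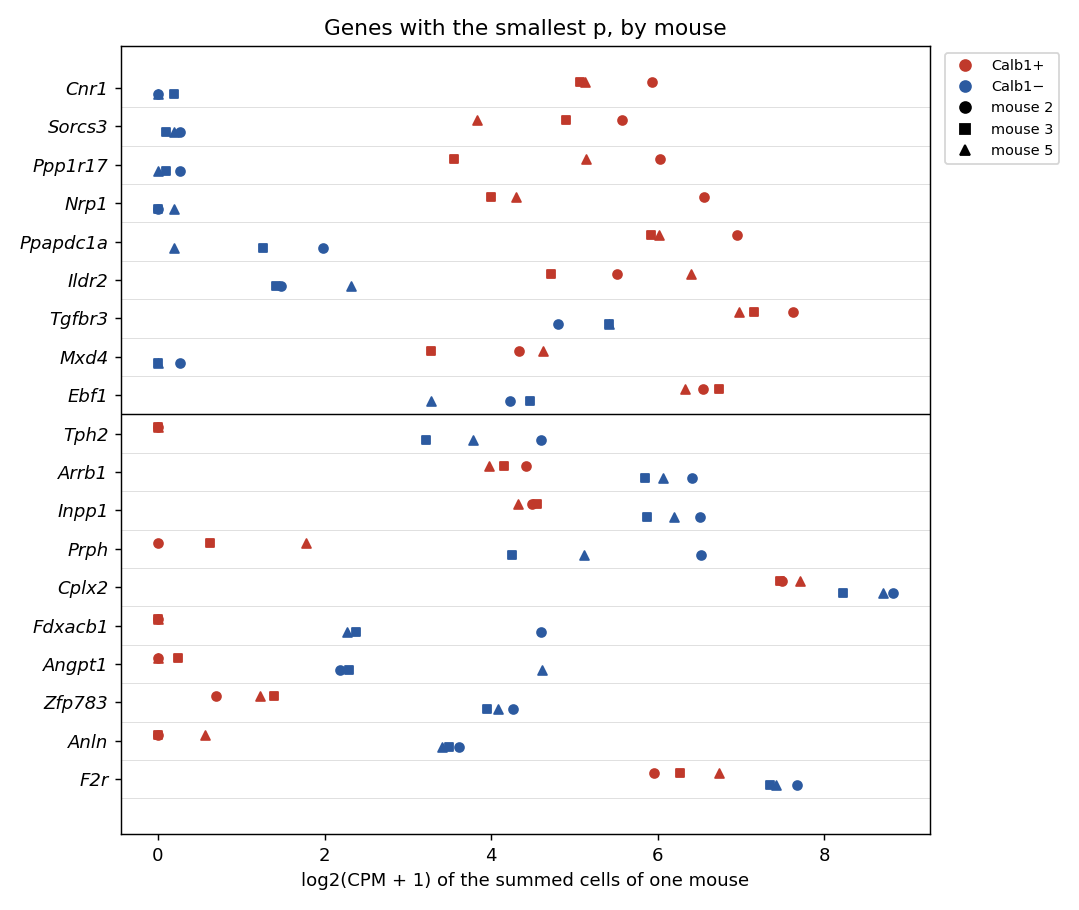
Levels of 19 of the 20 genes with the smallest unadjusted p, as log2(CPM + 1) of the summed cells of each mouse (horizontal), Calb1+ in red and Calb1− in blue, with a marker shape for each of mice 2, 3 and 5. The genes above the line are higher and those below it lower in Calb1+ cells; the choice fixed the direction, and 0 of 11799 genes passed edgeR's threshold.

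The 4 other mice with members did not enter the test and give values that the choice did not use. In mouse 4 (2 cells on each side), 4 of the 10 higher genes were higher and 4 of the 10 lower genes lower, beside 46.3% and 42.7% of all 11799 genes in the same comparison. These shares are close to each other. In mouse 6 (3 cells against 1), 5 of 10 and 0 of 10 did so, beside 78.2% and 13.3% of all genes. The lone Calb1− cell of mouse 6 had 3189 genes detected at 568658 reads, where the next lowest member had 6975. Cnr1, Sorcs3, Ppp1r17, Ppapdc1a and Mxd4 had no read on either side in mice 4 and 6. Mice 7 and 8 held only Calb1+ members, 5 and 6 cells. There Cnr1 stood at 68.1 and 155 CPM and Ebf1 at 211 and 116 CPM. These levels lay above all 3 Calb1− sums of the tested mice. Arrb1 went the other way in both mice with cells on each side, at 45.5 against 4.94 CPM in mouse 4 and 109 against 0 CPM in mouse 6. Inpp1 was also higher in Calb1+ cells of both, though only slightly in mouse 4, and Anln was higher in mouse 4. In mice 7 and 8, Arrb1 stood at 79.1 and 36.4 CPM and Cplx2 at 332 and 291 CPM. At least 1 of these mice had a level within or close to the Calb1− range of 56.6 to 84.1 and 299 to 452 CPM. F2r in mouse 7 also lay within its Calb1− range, and Zfp783 in mouse 8 lay above its own. The other lower genes lay below their Calb1− ranges in both mice. Mxd4, of the higher genes, was at 0 and 0.700 CPM there. Sox6, described below, stood at 74.4 against 110 CPM in mouse 4 and 62.3 against 174 CPM in mouse 6.

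Known markers of ventral tegmental and dorsal-tier DA neurons had the largest median log2 difference of the 16 gene lists described, which were drawn from general knowledge of midbrain DA neurons but with earlier results of these data known. Of 27 listed ventral tegmental and dorsal-tier markers, 22 could be tested. None passed edgeR's threshold, 21 of 22 had a positive log2 difference, 13 lay with all 3 Calb1+ sums above the Calb1− sums (5.69% of all genes did) and 1 with all 3 below. The median log2 difference was 3.01, beside 0.01 over all genes, and DESeq2 called 7 of the 22 as higher (0.517% of all genes). Calb1 itself was left out, but several of these genes are known to mark the same territory as Calb1, so the list is not independent of the split. The 13 genes were Calb2, Slc17a6, Cck, Grp, Neurod6, Lpl, Adcyap1, Gpr83, Cbln4, Tacr3, Wnt7b, Tnr and Plxnc1.

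Grp, gastrin-releasing peptide, stood at 337, 53.5 and 187 CPM in Calb1+ and 19.3, 4.95 and 14.2 CPM in Calb1− sums, a log2 difference of 3.92 ± 0.74 (adjusted p by edgeR 0.428, by DESeq2 8.34e-07). It held 10 or more reads in 14 of 21 and 5 of 34 cells. The per-mouse shares were 100% against 16.7%, 50.0% against 10.0% and 62.5% against 25.0%, higher in 3 of 3 mice. Tacr3, the neurokinin 3 receptor, measured 262, 289 and 131 against 107, 32.7 and 62.6 CPM (1.76 ± 0.48), and its share was 44.2 ± 17.0 percentage points higher in Calb1+ cells (SD over 3 mice). Calb2, calretinin, another calcium-binding protein, measured 730, 630 and 542 against 293, 149 and 177 CPM (1.61 ± 0.31, adjusted p by edgeR 0.438, by DESeq2 0.000946). It was above the limit in 20 of 21 and 15 of 34 cells, so Calb1+ cells nearly all carried both calbindin and calretinin RNA. Gpr83, a G protein-coupled receptor, measured 295, 40.4 and 19.7 against 3.74, 7.45 and 10.2 CPM, with mouse 2 far above the others and 11 of 21 against 7 of 34 cells above the limit. Tnr, tenascin R of the extracellular matrix, measured 26.1, 23.8 and 32.8 against 4.73, 1.95 and 3.98 CPM, in 11 of 21 and 2 of 34 cells. Cck, cholecystokinin, measured 159, 114 and 96.6 against 16.0, 45.2 and 54.8 CPM, yet the share of cells with it differed in sign between mice. Slc17a6, the vesicular glutamate transporter VGLUT2, measured 110, 37.7 and 173 against 33.5, 20.2 and 3.12 CPM, with 64.4% of the Calb1+ reads from 1 cell.

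Of 18 ventral-tier nigral markers tested, 0 passed edgeR's threshold and DESeq2 called 0 of them, 3 had a positive log2 difference, 5 lay with all 3 Calb1+ sums below the Calb1− sums (4.64% of all genes did) and none above, and the median was −0.57. The 5 were Sox6, Kcns3, Tyrp1, Fgf1 and Chrna3, of which Chrna3 turned direction with more mice, as given below. Sox6, a transcription factor of nigral DA neurons, stood at 20.4, 12.4 and 62.0 CPM in Calb1+ and 96.9, 68.1 and 154 CPM in Calb1− sums (log2 difference −1.77 ± 0.58, adjusted p by edgeR 0.921). It held 10 or more reads in 1 of 5, 2 of 8 and 6 of 8 Calb1+ cells of mice 2, 3 and 5 and in 4 of 6, 19 of 20 and 8 of 8 Calb1− cells. The share was lower in 3 of 3 mice. Kcns3, a modulatory potassium channel subunit, measured 38.8, 89.0 and 126 against 198, 149 and 200 CPM (−1.13 ± 0.39), with 14 of 21 against 34 of 34 cells above the limit. Tyrp1, tyrosinase-related protein 1, measured 0, 11.3 and 1.09 against 40.0, 22.4 and 36.4 CPM, with 84.5% of its Calb1+ reads from 1 cell. Satb1, a chromatin organizer, measured 169, 205 and 241 against 237, 262 and 428 CPM, and those groups overlapped.

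**Figure D3:**
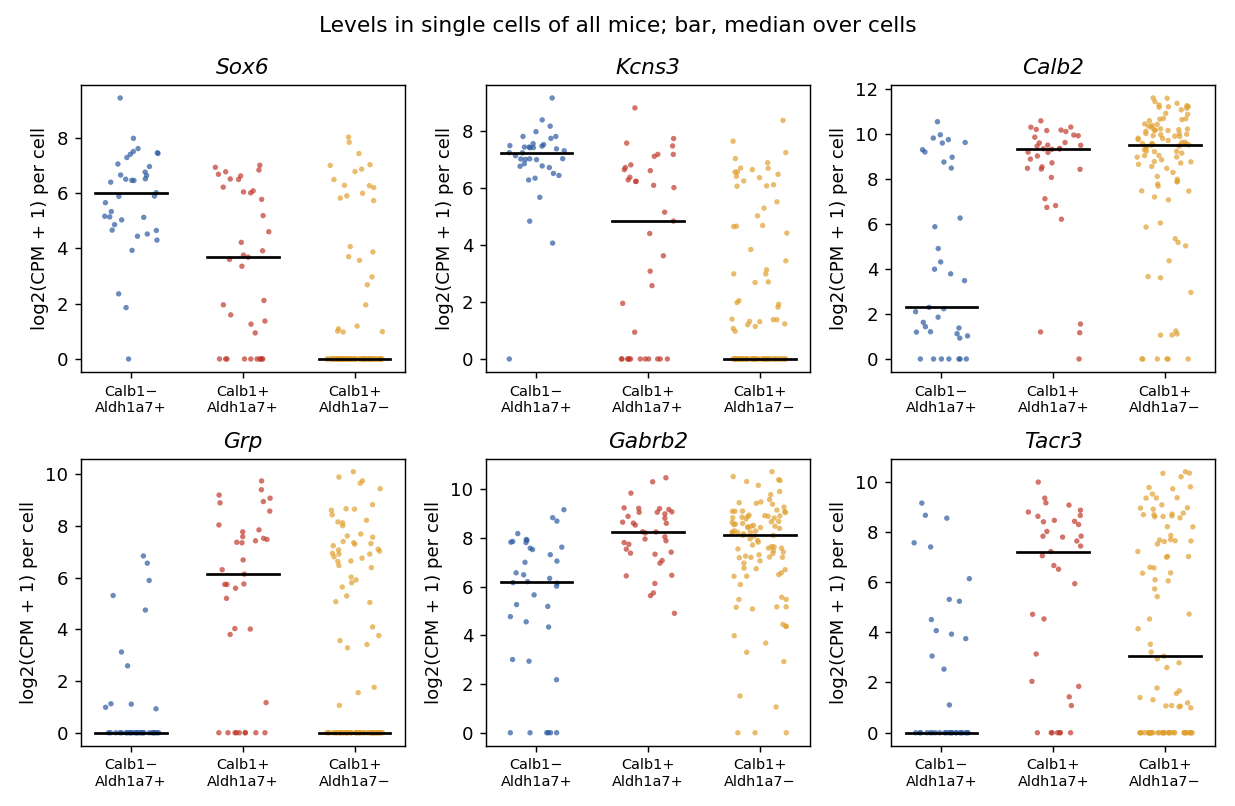
Levels of 6 genes in single cells as log2(CPM + 1), for Calb1− Aldh1a7+ cells (37, blue), Calb1+ Aldh1a7+ cells (37, red) and Calb1+ Aldh1a7− cells (99, yellow) of all mice; 1 point per cell, bar at the median. Sox6 held 10 or more reads in 34, 17 and 16 of these cells and Calb2 in 17, 33 and 87; cells of a mouse are not replicates.

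Sox6 and Otx2, transcription factors known for opposite territories of the DA system, divided the Calb1+ side further. Over all 7 mice, 15 of the 37 Calb1+ cells held Sox6 alone, 8 Otx2 alone, 2 both and 12 neither. Of the 37 Calb1− cells, 34 held Sox6 alone, 1 Otx2 alone, none both and 2 neither. The 17 Calb1+ cells with Sox6 had a median of 141 CPM Calb1 and 221 CPM Aldh1a7, and the 20 without it 334 and 34.9 CPM, with overlapping ranges. This subdivision was chosen after the values were seen. In the 3 tested mice Otx2 measured 12.1, 1.64 and 26.1 CPM in Calb1+ and 2.56, 0.488 and 0 CPM in Calb1− sums, but mouse 3 had no cell at 10 reads on either side and 76.3% of the Calb1+ reads came from 1 cell.

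Tests on the shares of cells could not pass with 3 mice. Over the 10 genes whose shares were tested, the smallest p was 0.25 (two-sided exact permutation of signs), which no adjustment can bring under the threshold, and it was reached by Sox6, Slc17a6, Grp and Tacr3, each with the same direction in 3 of 3 mice, but the Slc17a6 difference turned from 10.3 to −3.61 percentage points when positive cells began at 1 read. The mean difference was −47.2 ± 22.5 percentage points for Sox6 and 53.6 ± 25.8 for Grp (SD over 3 mice). Aldh1a1, the near-identical partner of Aldh1a7, was above the limit in 21 of 21 and 33 of 34 cells, at 7513, 2999 and 7339 against 8089, 4648 and 7713 CPM. Anxa1, annexin A1, which marks a set of ventral nigral neurons, measured 3258, 1027 and 236 against 2446, 1092 and 657 CPM, higher in 1 mouse and lower in 2. Lypd1, a prototoxin that acts on nicotinic receptors, had shares of 0%, 37.5% and 12.5% against 0%, 5.0% and 12.5%. Vip, vasoactive intestinal peptide, reached 10 reads in none of the 74 cells.

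All 11 GABA receptor subunits tested had a positive log2 difference, with a median of 0.51 beside 0.01 over all genes, 0 passed edgeR, 4 lay wholly above (5.69% of all genes did), Gabrb2 and Gabrq among them, and DESeq2 called 3 as higher (0.517% of all genes). Gabrb2, the beta 2 subunit, stood at 272, 352 and 333 CPM in Calb1+ and 140, 135 and 129 CPM in Calb1− sums (1.22 ± 0.23, adjusted p by edgeR 0.428). Gabrq, the theta subunit, measured 34.6, 14.6 and 42.6 against 0.591, 1.95 and 5.68 CPM, in 9 of 21 and 2 of 34 cells. Of 14 neuropeptides tested, 12 had a positive difference with a median of 0.76, and Cck, Grp and Adcyap1, which encodes PACAP, lay wholly above (5.69% of all genes did). DESeq2 called Grp and Adcyap1 as higher (0.517% of all genes). Adcyap1 measured 9.18, 78.4 and 35.9 against 5.12, 0.0697 and 0.284 CPM. Penk, proenkephalin, measured 110, 8.37 and 221 against 19.5, 0.139 and 0.142 CPM, and 74.0% of its Calb1+ reads came from 1 cell.

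Of 27 calcium-binding and sensor proteins tested besides Calb1, 14 had a positive difference, the median was 0.04, 0 passed edgeR and DESeq2 called 2 as higher (0.517% of all genes). Calb2, Hpcal1, Hpcal4 and Kcnip4 lay wholly above, and 1 gene of the list lay wholly below, beside 5.69% and 4.64% of all genes. Hpcal1, a neuronal calcium sensor of the hippocalcin family, measured 147, 118 and 106 against 28.6, 34.9 and 16.9 CPM (2.18 ± 0.40, adjusted p by edgeR 0.404), in 16 of 21 and 16 of 34 cells. Hpcal4, its relative, measured 221, 199 and 201 against 125, 113 and 129 CPM. Kcnip4, which regulates A-type potassium channels, measured 434, 359 and 280 against 184, 258 and 197 CPM. Of 25 calcium channels and pumps tested, 6 had a positive difference, the median was −0.15 and 0 passed. Atp2b3, a plasma membrane calcium pump, measured 54.7, 42.9 and 34.5 against 100.1, 64.6 and 66.7 CPM. Its relative Atp2b2 (514, 794 and 645 against 786, 1202 and 763 CPM), the T-type channel gene Cacna1g and the exchanger gene Slc8a2 overlapped between groups.

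Among 28 potassium channel genes tested, 0 passed, Kcnab1 and Kcnk2 lay wholly above and Kcns3, Kcnq3 and Kcnk1 wholly below, beside 5.69% and 4.64% of all genes, and the median was −0.22. Kcnq3 turned to 0.14 with Calb1+ from 50 reads. Kcnab1, an auxiliary beta subunit, measured 93.2, 24.2 and 140 against 23.4, 6.13 and 0 CPM, with 50.0% of its Calb1+ reads from 1 cell. Among 15 sodium, HCN and leak channels, Scn9a (the Nav1.7 sodium channel; 126, 111 and 111 against 76.6, 24.9 and 31.1 CPM) and Trpc4 lay wholly above and 1 gene wholly below, beside 5.69% and 4.64% of all genes. Scn3a overlapped. Of 8 nicotinic subunits, 5 had a positive log2 difference and the median was 0.13, but Chrna4 (385, 419 and 466 against 713, 478 and 650 CPM), Chrna5 (4.17, 5.09 and 23.5 against 29.2, 26.3 and 51.1 CPM) and Chrna3 lay wholly below (4.64% of all genes did). Chrna3 and Chrna4 turned to 0.075 and 0.078 with all mice that held members and to 0.22 and 0.076 with at least 1 cell a side. Of 18 glutamate receptor genes, Grm7 and Grik4 lay wholly above and 2 genes, Grm5 among them, wholly below, beside 5.69% and 4.64% of all genes, and Gria1 overlapped. None of these passed edgeR or DESeq2.

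Of 44 axon guidance and adhesion genes tested, 6 lay wholly above (5.69% of all genes did): Epha7, Plxnc1, Nrp1, Cdh2, Cdh7 and Cadm1. The list's median was 0.21, 0 passed edgeR and DESeq2 called 4 as higher (0.517% of all genes), among them Nrp1, which was already named for its small p. Epha7, an ephrin receptor, measured 72.0, 69.7 and 61.4 against 13.2, 29.0 and 15.5 CPM in 19 of 21 and 17 of 34 cells, and Efnb3, an ephrin ligand, 83.9, 2.00 and 24.7 against 0, 0.0697 and 2.27 CPM with overlapping groups. Of 12 dopamine synthesis, transport and breakdown genes, 4 had a positive difference, none was free of overlap (10.3% of all genes were) and the median was −0.17. Ddc measured 2804, 2442 and 2489 against 3000, 2769 and 3250 CPM, and Maoa, Drd2 and Pts also overlapped. Of 19 identity factors, 0 passed edgeR and DESeq2 called Ebf1 as higher (0.517% of all genes). Bnc2 and Ebf1 lay wholly above and Sox6 and Pbx3 wholly below, beside 5.69% and 4.64% of all genes, and the median was −0.08. Of 16 Parkinson disease genes, none was free of overlap (10.3% of all genes were) and the median was 0.03. Atp13a2, Synj1 and Park2 were among those that overlapped. Of 10 growth factor receptors, Ret, the GDNF receptor, and Igf1r lay wholly below (4.64% of all genes did). Ret measured 664, 559 and 638 against 759, 679 and 794 CPM, but its log2 difference turned to 0.22 with all mice that held members and to 0.26 with at least 1 cell a side. Ntrk3 and Gfra2 overlapped. Of 16 immediate early and dissociation-response genes, Jun alone lay wholly above, where 5.69% of all genes did (39.0, 39.3 and 64.2 against 20.3, 28.1 and 16.9 CPM), Dnajb1, Fos and Npas4 overlapped, and the median was 0.48. Jun turned to −0.79 with all mice that held members and to −0.67 with at least 1 cell a side.

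**Figure D4:**
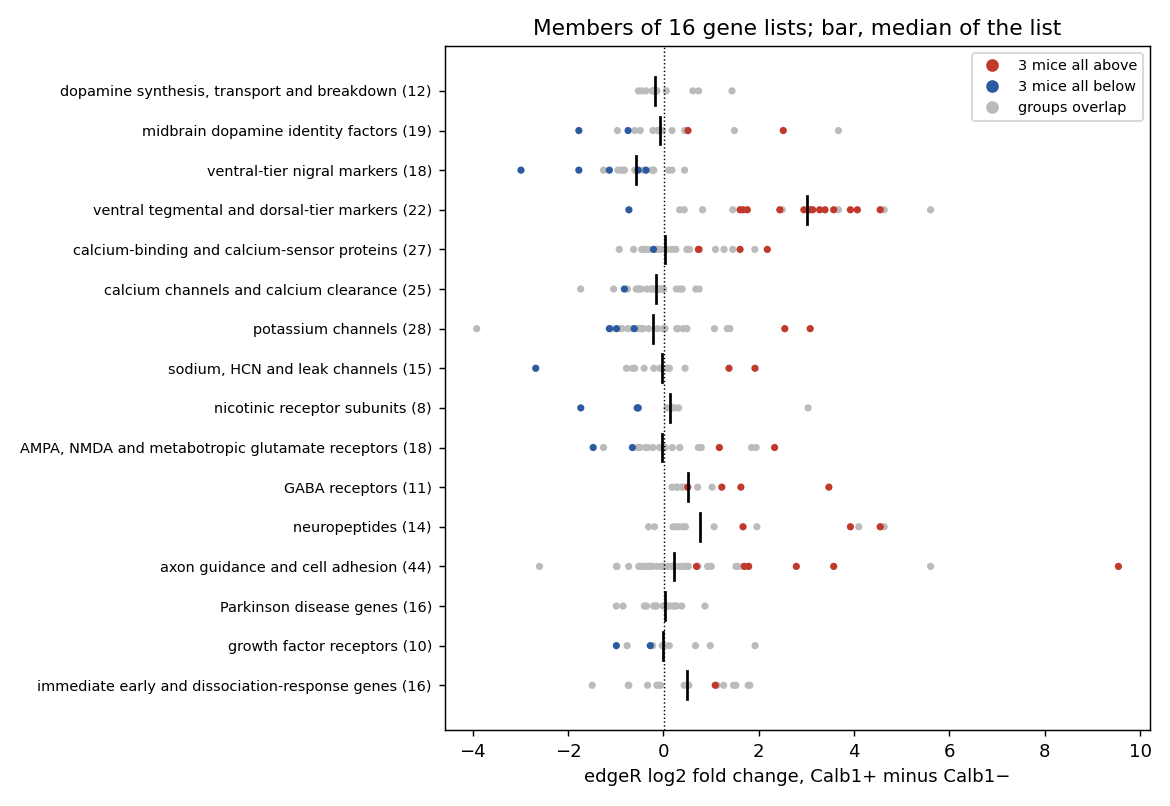
EdgeR log2 fold changes (Calb1+ minus Calb1−, horizontal) of the tested members of 16 gene lists, with the number tested in parentheses; black bars are list medians and the dotted line the median over all genes, 0.01. Red and blue points are genes whose 3 Calb1+ sums lie wholly above or below the 3 Calb1− sums, and 13 of the 22 ventral tegmental and dorsal-tier markers are red; no point passed edgeR's threshold.

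Among 5708 genes with 10 or more reads in at least 37 of the 74 cells, those whose CPM ranked most like Calb1 over the cells were Cadm1 (Spearman rho 0.75), Zcchc12 (0.67), Ahi1 (0.65), Spint2 (0.63) and Tmem130 (0.61). The lowest were Rasd2 (−0.70), Zdhhc2 (−0.69), Lix1 (−0.66), Nrip3 (−0.64) and Sncg (−0.63). These are descriptions over cells that share mice, depth and the split itself. Cadm1, a synaptic adhesion molecule, held 10 or more reads in 37 of 37 Calb1+ and 24 of 37 Calb1− cells, at 175, 215 and 299 against 97.9, 53.6 and 56.7 CPM in the sums. Ahi1, the Joubert syndrome gene, had a mean of 612 ± 93.2 against 245 ± 59.6 CPM (SD, n = 3 mice), with no overlap (adjusted p by edgeR 0.438). Rasd2, the small GTPase Rhes, measured 10.6, 26.4 and 13.2 against 65.4, 80.2 and 50.0 CPM in 9 of 21 and 32 of 34 cells, and Sncg, gamma-synuclein, 592, 1110 and 911 against 1347, 1347 and 1877 CPM.

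To place the Calb1+ side of the set beside the larger Calb1+ population, its cells were compared, in a comparison added after the data were seen, with the Calb1+ Th-rich cells below the Aldh1a7 limit in 6 mice (35 against 86 cells). Calb1 and Aldh1a7 were left out. EdgeR called 13 of 11997 genes (0.108%), 4 higher (0.0333%) and 9 lower (0.075%) in the Aldh1a7+ cells, and with the mouse as a block 14 genes, 8 higher and 6 lower, among them 9 of the 13. DESeq2 called 94 genes, and leaving out single mice moved the edgeR count to 5 without mouse 2, 24 without mouse 3, 2 without mouse 5 and 2 without mouse 7, and to 13 and 11 without mice 6 and 8. Aldh1a1 stood at 2999 to 7642 CPM, median 6737, in Aldh1a7+ and at 1006 to 1938 CPM, median 1531, in Aldh1a7− cells (log2 difference 2.09 ± 0.24, adjusted p by edgeR 0.00164), higher in 6 of 6 mice. Aldh1a7 chose these cells and its sequence is near identical to that of Aldh1a1, and the part of read assignment between the paralogs in this difference was not tested. Aldh1a1 was the 1 gene called with each mouse left out in turn (adjusted p 0.000197 to 0.0292).

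Serpine2, a secreted protease inhibitor, measured 681 to 1767 CPM, median 1317, against 208 to 569 CPM, median 349 (1.87 ± 0.29, adjusted p by edgeR 0.015), and its call was lost without mouse 2 (0.068), 5 (0.12) or 7 (0.077). Ift57, of intraflagellar transport, measured 22.6 to 74.3 against 9.21 to 15.3 CPM (2.19 ± 0.35), and its call was lost under the block (0.14) and without each single mouse (0.051 to 0.12). Rap1gds1, an exchange factor for small GTPases, measured 537 to 836 against 238 to 435 CPM (1.14 ± 0.20, adjusted p by edgeR 0.037), and only without mouse 3 was it called (0.024; 0.092 to 0.19 otherwise). In each of these the lowest Aldh1a7+ mouse lay above the highest Aldh1a7− mouse.

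The 9 genes lower in Aldh1a7+ cells were mostly ones these cells lacked. Crhbp, the binding protein of corticotropin-releasing hormone, stood at 0 to 0.121 CPM in Aldh1a7+ and 2.69 to 215 CPM in Aldh1a7− cells (adjusted p by edgeR 0.00164), in 0 of 35 and 16 of 86 cells. The 0 would allow a share of up to 8.57% were cells independent draws, and without mouse 5 the call was lost (0.12). Cbln2, a synaptic organizer, was at 10 reads in 0 of 35 and 21 of 86 cells and its call was lost without mouse 7 (0.056). Grm8, a presynaptic glutamate receptor, had no read in Aldh1a7+ cells, at least 210-fold lower against 3 reads over the group (counting error only). It was in 18 of 86 Aldh1a7− cells, and its call was lost under the block (0.21) and without mouse 2 (0.066), 5 (0.094) or 7 (0.069). Fstl1, a follistatin-like secreted protein, reached 10 reads in 1 of 35 and 32 of 86 cells, and Ryr2, an intracellular calcium release channel, in 0 of 35 and 32 of 86. Fstl1 was lost under the block (0.052) and without mouse 2 (0.066), 5 (0.057) or 7 (0.058), and Ryr2 without mouse 2 (0.065), 5 (0.12) or 7 (0.077). Doc2a, a calcium sensor of vesicle release, was in 0 of 35 and 10 of 86 cells and was lost without mouse 5 (0.061) or 7 (0.051). Ano3, of the anoctamin family, was in 0 of 35 and 10 of 86 cells and was lost under the block (0.11) and without each single mouse (0.0505 to 0.131).

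Tmeff2 and Pcdh7 were on both sides at different levels. Tmeff2, a transmembrane protein with follistatin domains, measured 12.6 to 63.5 against 134 to 207 CPM (−2.26 ± 0.33, adjusted p by edgeR 0.011) and was lost without mouse 2 (0.066), 5 (0.090) or 7 (0.077). Pcdh7, a protocadherin, measured 49.1 to 115 against 175 to 317 CPM (−1.46 ± 0.24, adjusted p by edgeR 0.019) and was called with the mice left out singly only without mouse 8 (0.047; 0.051 to 0.12 otherwise). None of these 13 was among the 20 genes of the Calb1 split, and 7 of them could be tested in that split. Fstl1 had a log2 difference of −3.21 there, lower in Calb1+ cells, and Aldh1a1, Serpine2, Ift57, Pcdh7, Tmeff2 and Rap1gds1 had −0.21, −0.34, −0.71, 0.07, 0.56 and −0.25 (adjusted p by edgeR 0.997 for each of the 7). The comparisons share the Calb1+ Aldh1a7+ cells. For the leading genes of the Calb1 split the Aldh1a7− cells gave levels beside those of the Calb1+ members: Ebf1 at 2.96 to 80.7 beside 39.5 to 211 CPM (1.44 ± 0.66), Cnr1 at 37.0 to 320 beside 0 to 155 CPM (−1.58 ± 0.79), Grp at 5.37 to 158 beside 44.4 to 337 CPM (0.92 ± 0.60) and Sox6 at 8.87 to 29.2 beside 12.4 to 62.3 CPM (1.01 ± 0.50). None of these 4 passed (adjusted p by edgeR 0.73 to 0.86), which does not show that the classes are alike.

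**Figure D5:**
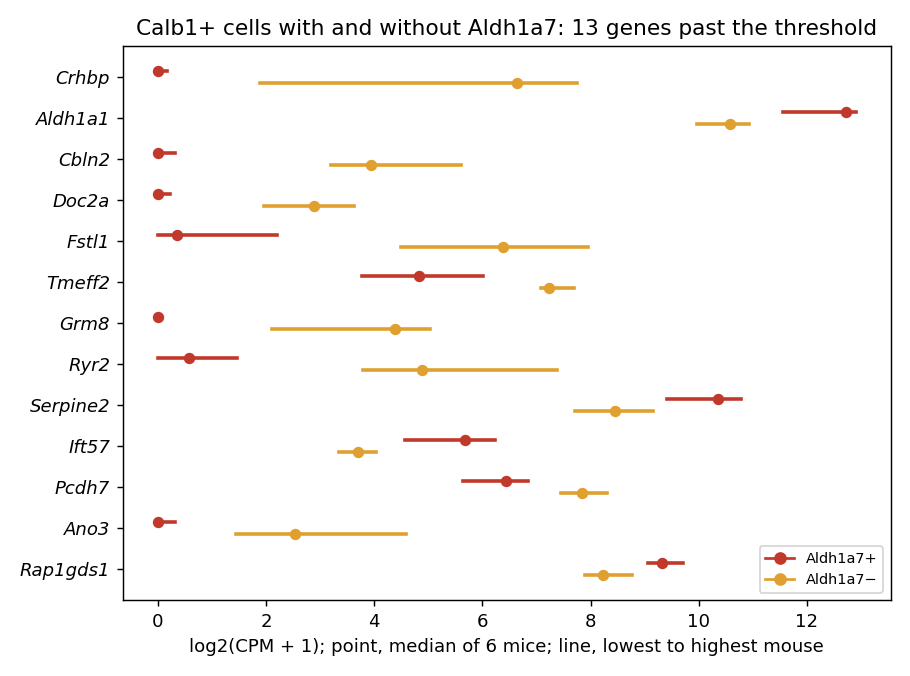
The 13 genes past edgeR's threshold between Calb1+ cells with and without Aldh1a7, as log2(CPM + 1) of the sums of 6 mice; points are medians and lines run from the lowest to the highest mouse, red Aldh1a7+ and yellow Aldh1a7−. Aldh1a1, Serpine2, Ift57 and Rap1gds1 lie higher and the other 9 lower in Aldh1a7+ cells.

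Whether the Calb1 split had another size in Aldh1a7− than in Aldh1a7+ cells could not be tested as planned, because only 1 mouse held 3 cells in each of the 4 classes. With 1 cell in each class sufficing, 3 mice (3, 4 and 5) entered, and edgeR called 0 of 12327 interaction terms (0.0%, and 4.1% at an unadjusted p under 0.05), DESeq2 7. The Calb1− Aldh1a7− class held 8 cells in all, which limits that comparison.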

How the data were processed

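Single tdTomato+ cells from dissected midbrain and hypothalamus of 8 mice were sequenced as full-length cDNA. The deposited values are raw counts of reads per gene and cell: per the labels and the study's methods, the authors trimmed reads with Trimmomatic 0.3.2, aligned them to mm10 with TopHat2 2.1.1 and counted them over RefSeq genes with featureCounts 1.5.0-p3, dropping reads of more than 1 gene and chimeric fragments.

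Here, cell counts were added up by mouse and side, and mice with at least 3 cells a side entered. EdgeR 4.0.16 (R 4.3.3) ran the quasi-likelihood test with TMM and filterByExpr, adjusted by Benjamini-Hochberg with a threshold of 0.05. DESeq2 1.42.0, limma 3.58.1 on mean CPM, other read limits, thinning of cells to 500000 reads, a mouse block and leaving out each mouse were alternatives. Both sides come from the same animals, so the mouse pairs the sums, and deviations from the group means correlated at 0.116, 0.143 and 0.181 in mice 2, 3 and 5 and at 0.0566 to 0.142 in the 6 mice of the Aldh1a7 comparison. Shares of cells, reads and genes per cell were compared by exact sign-flip permutation over mice. The scripts were tested on simulated data. Named genes were the 10 in each direction with the smallest unadjusted p, the same direction in every mouse and at least 10 CPM on the higher side, plus the genes of the lists and the Calb1-like genes by rank correlation. The members and lists were chosen with earlier results of these data known. Doublets were not called. Results for some genes are not reported here, including 1 of the 20 named by p.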

Additional observations from a re-analysis of the deposited data

Results flagged for a closer look

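For normally distributed values Dixon's criterion flags about 1 in 20 groups by chance, and its rate for values near 0 was not tested. In the comparison of Calb1+ cells with and without Aldh1a7, 7 groups of 6 mice held a mouse far from the others by that criterion. In Aldh1a7+ cells these were Crhbp at 0.121 CPM in mouse 5, Cbln2 at 0.254 CPM in mouse 7 and Doc2a at 0.175 CPM in mouse 8, each with the other 5 mice at 0, and Fstl1 at 3.64 CPM in mouse 3 with the next at 0.417 CPM. The first 3 are 1 read each. In Aldh1a7− cells they were Cbln2 at 47.6 CPM in mouse 8 with the next at 22.6 CPM, Ryr2 at 165 CPM in mouse 5 with the next at 41.7 CPM, and Ano3 at 23.2 CPM in mouse 6 with the next at 8.95 CPM.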

How the results depend on the processing

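For the Calb1 split, edgeR called 0 genes under every alternative run except without a filter on low counts, which called 6 (Cnr1, Grp, Nrp1, Ppapdc1a, Ppp1r17 and Sorcs3), and DESeq2 called 88. Leaving out a mouse gave 0 to 0 calls, and the mouse as a block (pairing) gave 0 and changed no other call of this split. Interaction terms numbered 0 in edgeR, 0 under the replicate block and 7 in DESeq2. Between the Aldh1a7 classes the 13 calls became 94 in DESeq2, 14 with the mouse as a block, and 2 to 24 without single mice: 5 without mouse 2, 24 without mouse 3, 2 without mouse 5 and 2 without mouse 7. The alternatives with at least 2 cells or 1 cell a side and with all mice, this class comparison and the interaction with 1 cell a class were chosen after seeing the data. Lane 2 alone left 1 mouse and was not run, and males only and at least 5 cells a side kept the same mice as the main test.

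Log2 differences (Calb1+ minus Calb1−) that turned direction, none of them called by edgeR, follow by setting. With all mice: Aldh1a1 0.15, Anxa1 −1.24, Arrb1 0.14, Chrna3 0.075, Chrna4 0.078, Ddc 0.12, Jun −0.79, Park2 0.68, Pts 0.17, Ret 0.22 and Synj1 0.095. With at least 1 cell a side: Aldh1a1 0.19, Anxa1 −0.86, Arrb1 0.020, Atp2b2 0.11, Chrna3 0.22, Chrna4 0.076, Ddc 0.23, Dnajb1 0.064, Drd2 0.098, Jun −0.67, Park2 0.19, Pts 0.36, Ret 0.26 and Synj1 0.19. With at least 2 cells: Anxa1 −0.30, Maoa −0.20, Park2 0.0046 and Pts 0.027. Aldh1a7 from 50 reads: Anxa1 −0.71 and Drd2 0.40. Calb1 from 1 read: Aldh1a1 0.0095 and Angpt1 0.32. Calb1 from 50 reads: Drd2 0.027 and Kcnq3 0.14. Lane 1, which is also without mouse 5: Pts 0.069, with −0.73 without mouse 3. Without single mice: Anxa1 −0.49 and Drd2 0.33 without mouse 2 (Drd2 down to −0.93 without mouse 3). Lypd1 ranged from −2.13 without mouse 3 to 2.20 without mouse 5. Limma on mean CPM: Anxa1 −0.35 and Lypd1 −0.062. Replicate block: Anxa1 −0.39 and Lypd1 −0.44. Share differences that turned, in percentage points, were Anxa1 −6.25 without mouse 2 (8.33 without mouse 5), Cck −11.2 without mouse 3, Cck −1.67, Lypd1 −2.5 and Slc17a6 −3.61 with positive cells from 1 read, and Lypd1 −4.17 from 50 reads. The cause was not tested. The 3 male mice limit the test of the split.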

Other observations

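The count table also holds entries for transgenes. Over the 37 Calb1+ and 37 Calb1− cells the tdTomato entry held 374 and 336 reads, present in 35 cells on each side, and the entry named CreER held 2092 and 1147 reads, in 34 and 33 cells. The eGFP entry had no read.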
